A study of Rattus norvegicus with 4 samples.

Results

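The enzymes that make steroid hormones and that reduce, oxidise or inactivate them form a set of 10 genes, chosen by gene symbol. Of these, 7 were measured by a probe set that carried 1 gene symbol in the platform annotation, among 14506 genes in all. The measured genes were Cyp11a1, Cyp17a1, Cyp21a1, Hsd11b1, Hsd11b2, Hsd17b2 and Hsd17b6. Cyp19a1, Srd5a1 and Srd5a2 were not analysed here. The set was assembled with earlier results of these arrays known, so its values are a description and carry no test.

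The study compared baseline liver expression in lean and obese male rats of the WNIN/Ob strain, aged 4 months, fed a stock diet and given no treatment. Lean and obese are phenotypes of the same strain. Liver RNA of 4 lean animals was combined into 1 pool and that of 4 obese animals into another, and each pool was hybridised to 2 arrays, an original and a technical replicate. The labels do not name the gene behind the phenotype.

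Steroid hormones are made from cholesterol, mainly in the adrenal cortex and the gonads. Cyp11a1 cleaves the side chain of cholesterol, Cyp17a1 opens the way from pregnenolone and progesterone to the androgens, and Cyp21a1 leads to the corticosteroids. The liver is better known for the later steps, in which hydroxysteroid dehydrogenases switch hormones between active and inactive forms and cytochromes, reductases and transferases prepare them for excretion. In the rat, many of the hepatic steroid hydroxylases are expressed mostly in one sex.

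A pool's level is the mean log2 intensity of its 2 arrays, given with the standard deviation (SD) of those arrays, and a difference is obese minus lean. Each fold is followed by the lowest and highest of the 4 folds between single lean and obese arrays. That range covers measurement error only, because each phenotype was measured as 1 pool and no value has a replicate check across animals. A gene was past the 1.5-fold rule when its fold reached 1.5, its lean and obese arrays were separated by a log2 gap of 0.25 or more, and the higher pool reached the median level of all genes, 5.48. The 2-fold rule asked for a fold of 2 and a gap of 0.5. The deposited values hold no detection calls, so a gene below the level filter of 5.48 is not shown to be above background. RMA, the method behind the values, narrows differences of dim and bright probe sets.

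Over all genes the SD of the difference between the arrays of a pool was 0.20 for the lean pool and 0.27 for the obese pool on the log2 scale. The upper quartile of log2 intensity over genes was highest on the obese original array, at 7.21, and lay between 7.04 and 7.08 elsewhere. All 6 hepatocyte markers were bright in both pools, between 12.21 and 13.77, and all 6 were above 0 in the difference, with a median of 0.11 and up to 0.41 for Apoa1. The 9 skeletal muscle markers were all past the 1.5-fold rule as lower in the obese pool. Their summed linear intensity was 29413 to 30654 on the lean arrays and 373.3 to 377.4 on the obese arrays. On the obese arrays their log2 levels ran from 3.76 to 6.89. Those below the level filter there are not shown to be above background. The part of muscle RNA in the lean pool in the differences below was not tested.

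Cyp17a1 was the 1 enzyme of the 7 past the 1.5-fold rule, and it was higher in the obese pool. Across all genes 2.19% were past that rule as higher and 2.43% as lower, so 47.4% of calls were higher. That share was 36.2% with cyclic loess between the arrays and 27.4% with hepatocyte markers set level. The count of higher genes was 317, or 553 without the obese technical replicate array. Hsd11b1, Hsd17b2 and Hsd17b6 were bright in both pools and stayed under a fold of 1.5 by the selected probe sets. Of these, Hsd17b2 differed most and the brightest probe set of Hsd17b6 least. Cyp11a1, Cyp21a1 and Hsd11b2 stayed below the level filter on every array. In pooled tissue RNA, a change in the share of cells that express a gene and a change in RNA per cell cannot be told apart.

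**Figure D1:**
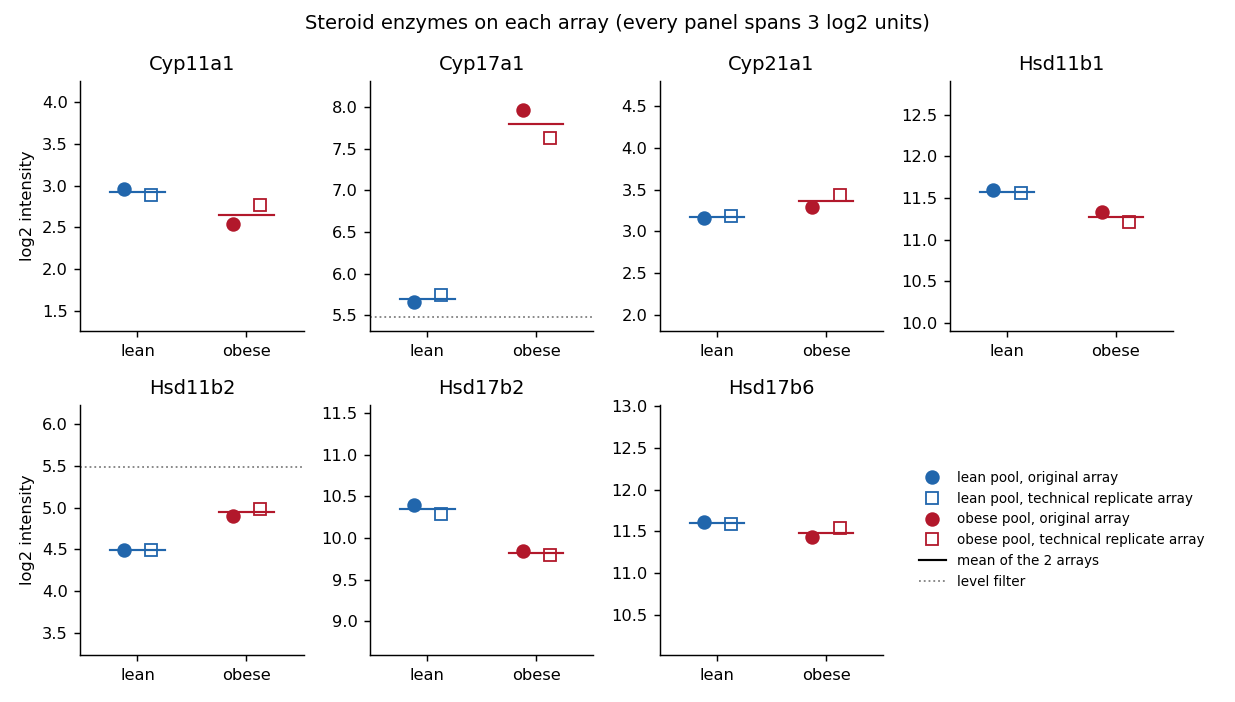
Log2 intensity of the 7 measured enzymes on each of the 4 arrays, with the mean of each pool as a line; every panel spans 3 log2 units, and panels are not to be compared in level. The Cyp17a1 arrays of the obese pool stand at 7.63 and 7.96 against 5.65 and 5.74 in the lean pool. By the probe set with the highest mean of each gene, the differences of the other enzymes lie between -0.53 and 0.45.

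Cyp17a1 encodes the cytochrome that hydroxylates pregnenolone and progesterone and then cleaves them to androgen precursors. Its log2 intensity was 5.65 on the lean original array and 5.74 on the lean technical replicate, and 7.96 and 7.63 on the corresponding obese arrays. The lean values lay just above the level filter and both obese values far above it, without overlap. The lean pool thus had a level of 5.70 ± 0.06, and the obese pool one of 7.80 ± 0.24 (SD, 2 arrays each). The obese level of Cyp17a1 was 4.29-fold higher (3.71 to 4.96), a difference of 2.10 that was also past the 2-fold rule, as was that of 0.572% of all genes in this direction. It ranked 10 of 14506 genes by signed difference, and 0.855% of genes had a larger absolute difference. The obese arrays lay 0.33 apart, the largest gap between arrays of a pool among the 7 enzymes. Without the obese original array the difference was 1.93, and without the obese technical replicate 2.27.

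The enzyme at the start of steroid synthesis and that of the corticosteroid branch were dim. Cyp11a1, which makes pregnenolone, stood at 2.96 and 2.88 on the lean arrays and at 2.54 and 2.76 on the obese arrays. Cyp21a1, the hydroxylase on the route to corticosterone and aldosterone, stood at 3.16 and 3.19 on the lean and at 3.29 and 3.44 on the obese arrays. The arrays of the pools did not overlap for either gene, but neither gene is shown to be above background, so no fold is given. Such a separation was frequent over all genes: 27.5% had both obese arrays above both lean arrays and 18.5% had both below.

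Markers of adrenal cortex and gonad were dim as well. The 8 measured markers, among them Star, which carries cholesterol into the mitochondrion, and the corticotropin and luteinising hormone receptors Mc2r and Lhcgr, all stayed below the level filter. They ran from 2.02 to 5.20 on the lean and from 2.09 to 5.20 on the obese arrays. Below the filter none of them could pass the 1.5-fold rule. Their summed linear intensity was 123.6 to 130.7 on the lean and 118.0 to 137.1 on the obese arrays, ranges that overlap. Hsd3b2, a dehydrogenase that turns pregnenolone into progesterone in the rat, was below the filter as well, with a lean level of 4.89 and an obese level of 4.45.

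**Figure D2:**
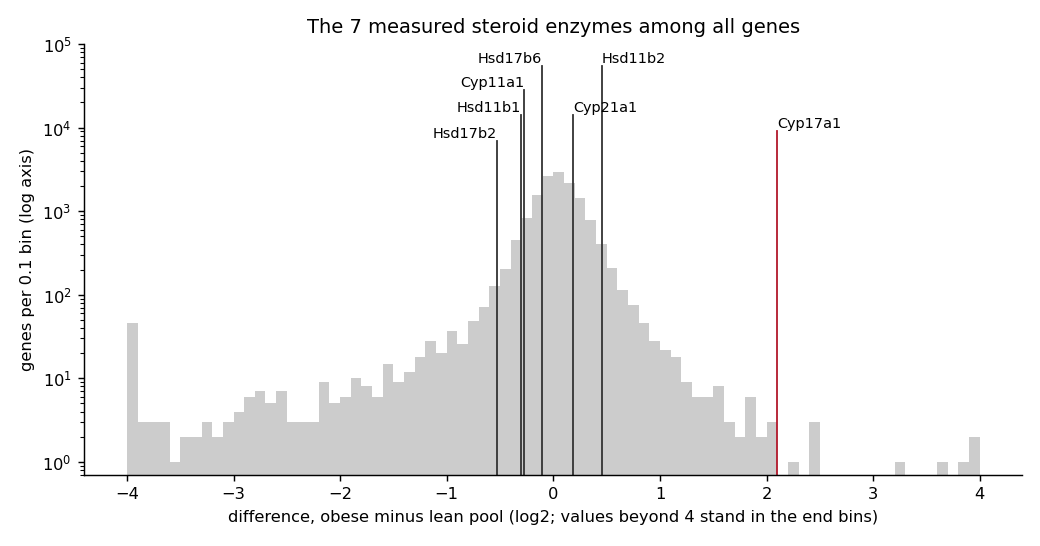
Number of genes per 0.1 bin of the difference between the pools (log2, obese minus lean; log axis for the counts), with the 7 enzymes marked by lines. Cyp17a1, in red, lies at 2.10 in the sparse right tail. By the probe set with the highest mean of each gene, the other 6 lie between -0.53 and 0.45, where most genes are.

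The hydroxysteroid dehydrogenases that set the local activity of glucocorticoids differed less. Hsd11b1 regenerates active corticosterone from its inert keto form and is abundant in hepatocytes. It stood at 11.59 and 11.56 on the lean arrays and at 11.33 and 11.21 on the obese arrays. Both obese values were lower, and the obese level was 1.24-fold lower (1.18 to 1.30), short of the 1.5-fold rule. Of all genes, 19.9% had a larger absolute difference. H6pd, which supplies Hsd11b1 with NADPH inside the endoplasmic reticulum, differed by -0.06 with overlapping arrays (-0.24 to 0.13).

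Hsd11b2 catalyses the opposite reaction, the inactivation of corticosterone, and is best known from the kidney. Its values were 4.49 and 4.49 on the lean arrays and 4.91 and 4.98 on the obese arrays. The obese values were higher by 0.45 (0.41 to 0.49), yet all 4 lay below the level filter, so the difference has no firm size. The 3 kidney markers were also below the filter in both pools.

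Hsd17b2 oxidises oestradiol and testosterone to their weaker keto forms. Its log2 intensity was 10.40 and 10.29 on the lean and 9.84 and 9.79 on the obese arrays, so that both obese arrays lay below both lean arrays. The obese level was 1.44-fold lower (1.37 to 1.52), the nearest of the 7 to the 1.5-fold rule without passing it, and 7.12% of genes had a larger absolute difference. It passed the rule as lower with cyclic loess between the arrays (-0.61). It also passed when the hepatocyte markers were set to the same mean level on every array (-0.68), an alternative that moved the median difference of all genes from 0.03 to -0.11.

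Hsd17b6, a short-chain dehydrogenase that oxidises androgens and related steroids, gave no single answer. Its probe set with the highest mean, which the rule selects, stood at 11.61 and 11.59 on the lean and at 11.43 and 11.54 on the obese arrays. That is a fold of 1.08 toward the lean pool (1.03 to 1.13), and 58.5% of genes had a larger absolute difference. The other two probe sets under this symbol were higher in the obese pool.

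The probe set second by mean stood at 10.37 and 10.26 on the lean arrays and at 11.42 and 11.39 on the obese arrays. The obese level was 2.13-fold higher (2.03 to 2.23), which is past the 2-fold rule. The remaining probe set, the dimmest, stood at 9.65 and 9.69 on the lean and at 10.66 and 10.59 on the obese arrays, 1.93-fold higher (1.86 to 2.00) and past the 1.5-fold rule. Both therefore separated the pools by more than the arrays of a pool differed. With the mean of its probe sets in place of the brightest one, Hsd17b6 had a difference of 0.64 and was past the 1.5-fold rule, which made 2 enzymes higher instead of 1.

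Such a disagreement was rare on these arrays. Of 305 genes whose several probe sets all reached the level filter, 2 had a spread of differences as large as the 1.20 of Hsd17b6, itself included, and the median spread was 0.07. Hsd17b6 belongs to a family of closely similar dehydrogenases. The transcripts that each probe set detects are not known here, so the direction for Hsd17b6 is uncertain. Among its relatives the retinol dehydrogenase Rdh16 was lower in the obese pool by 2.13-fold (2.02 to 2.25), and Rdh7 and Sdr9c7 differed by -0.10 and 0.03.

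**Figure D3:**
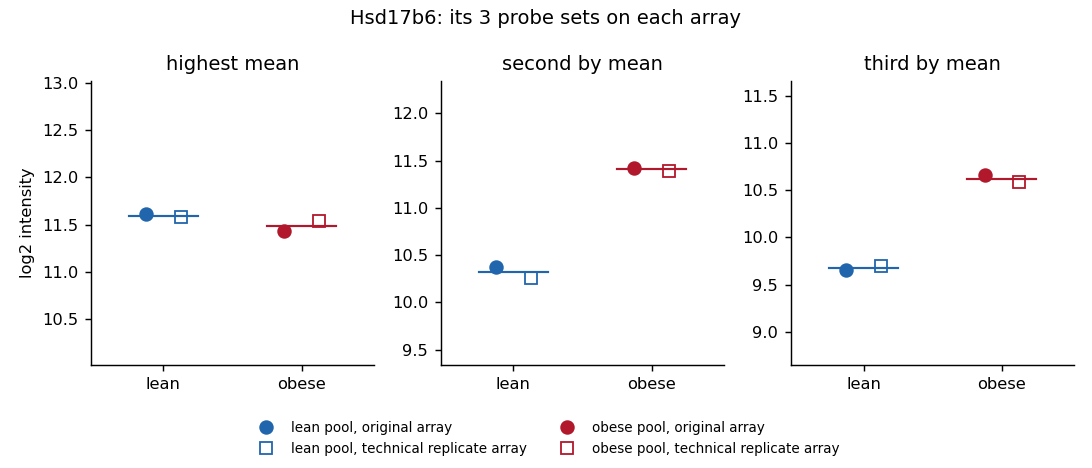
Log2 intensity of the 3 probe sets annotated to Hsd17b6 on each array, with the mean of each pool as a line; every panel spans 3 log2 units. The probe set with the highest mean differs by -0.11 between the pools, and the others, in order of their mean, differ by 1.09 and 0.95.

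The other genes of steroid metabolism were taken from 10 lists chosen with earlier results of these data known. Of their 67 measured members 4 were past the 1.5-fold rule as higher and 8 as lower in the obese pool. These are shares of 5.97% and 11.9% against 2.19% and 2.43% of all genes. Only genes that reach the level filter can pass, and 53 of the 67 did so, against 7555 of all 14506. The shares of the lists and of all genes are therefore not on an equal footing. Each list median below is followed by its lowest and highest value with 1 array left out. The median difference of the 67 genes was 0.02, against 0.03 over all genes and -0.11 over the 7 enzymes. That -0.11 is the value of the brightest probe set of Hsd17b6, whose other probe sets were higher in the obese pool. The sign of the median of the 7 therefore depends on the probe set. Among the 7, Cyp11a1, Cyp21a1 and Hsd11b2 lay below the level filter.

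Steroid hydroxylation held the largest differences within these lists. Of 9 measured hydroxylases 5 were lower and 1 was higher, with a median difference of -0.75 (-0.79 to -0.70). Cyp3a18 and Cyp3a2, which hydroxylate testosterone and are higher in male rats, were 7.55-fold (6.49 to 8.79) and 4.46-fold (3.91 to 5.08) lower. Cyp7b1, which hydroxylates dehydroepiandrosterone and oxysterols, was 2.26-fold lower (1.79 to 2.87). Its level was 6.74 and 7.03 on the lean and 5.90 and 5.51 on the obese arrays. The male-biased Cyp2a2 and Cyp2c11 were 1.96-fold (1.80 to 2.14) and 1.68-fold (1.60 to 1.76) lower. Cyp2a1 was 1.51-fold higher (1.42 to 1.60), a call that held in 6 of 12 processing alternatives. Leaving out the level filter and averaging probe sets are among those 6 and cannot alter this gene, which has 1 probe set. The male-biased Cyp2c13 differed by -0.17 (array pairs, -0.28 to -0.06), the female-biased Cyp2c12 by 0.23 (0.09 to 0.37) and Cyp3a9 by 0.22 (0.00 to 0.43), and none of them was past the rule. In the same pools the 4 measured pericentral hepatocyte markers had differences from -0.89 to -0.14 and a median of -0.35, with 1 past the rule as lower. Their summed linear intensity was 10624 to 10934 on the lean and 9004 to 9520 on the obese arrays. The 9 muscle markers had a median difference of -6.31. The part of either in the hydroxylases was not tested.

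Most of the neighbouring dehydrogenases and reductases stayed short of the 1.5-fold rule. Of 9 other enzymes named as hydroxysteroid dehydrogenases of the Hsd17b group 1 was past the rule, Hsd17b13, a protein of lipid droplets, at 1.61-fold higher (1.53 to 1.69), and the median was 0.13 (0.07 to 0.19). None of 6 other steroid reductases passed, and their median was 0.17 (0.10 to 0.23). Akr1d1 and Akr1c14, which reduce steroid hormones on the way to excretion, differed by 0.19 and 0.18. None of 7 genes of cholesterol delivery and electron supply passed, with a median of -0.08 (-0.14 to -0.04). None of 5 genes of the Hsd3b and Cyp11b groups passed, and 4 of them were below the level filter in both pools. The median of the 5 genes, 0.02, is the value of a gene below the level filter. It took either sign: leaving out the obese technical replicate array gave -0.26, leaving out the lean original -0.15 and leaving out the lean technical replicate 0.16. Among 5 genes of steroid conjugation the sulphotransferase Sult2a2 was 1.80-fold higher (1.68 to 1.92), and the median was -0.25. That median is the value of Ugt2b7, which was below the level filter in both pools. With 1 array left out it ran from -0.34, without the obese technical replicate, to -0.11, without the obese original or the lean technical replicate. It was -0.07 with an offset of 16 before log2.

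Of 6 steroid receptors Esr1, the oestrogen receptor of hepatocytes, was past the rule. Its values were 7.06 and 7.18 on the lean and 8.36 and 8.07 on the obese arrays, an obese level 2.14-fold higher (1.86 to 2.47). A further probe set of Esr1 gave 2.02-fold (1.80 to 2.26). The glucocorticoid receptor Nr3c1 differed by -0.02 with overlapping arrays (-0.18 to 0.14), and the median of the list was 0.08 (0.04 to 0.15). Serpina6, the plasma carrier of corticosterone, differed by -0.06 (-0.13 to 0.01), and none of the 3 carriers passed.

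Of 9 genes induced by glucocorticoids 2 were past the rule as lower and 0 as higher. Their median was -0.23, whichever array was left out. By sign 7 were below 0 and 2 above it, 1 of them Tat at 0.33 (0.29 to 0.36). The selected probe set of Mt2A was 1.43-fold lower (1.41 to 1.46). Its other probe set was 1.69-fold lower (1.62 to 1.77), which is past the 1.5-fold rule. Zbtb16, a transcription factor, was 1.73-fold lower (1.61 to 1.87) and Dusp1, a phosphatase of stress kinases, 1.67-fold (1.55 to 1.79). Of 8 regulators of steroidogenic genes the orphan receptor Nr4a1 was 2.60-fold lower (2.32 to 2.92), from 6.56 and 6.32 on the lean to 5.10 and 5.01 on the obese arrays, where it was under the level filter, which leaves its fold without a firm size. Nr5a2, an orphan receptor of liver that activates steroidogenic and bile acid genes, differed by 0.07 with overlapping arrays (-0.15 to 0.29), and the median of the regulators was 0.08 (0.02 to 0.12). Skeletal muscle also expresses Nr4a1, Dusp1 and Zbtb16, and its markers were lower in the same pool; its part in these differences was not tested.

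**Figure D4:**
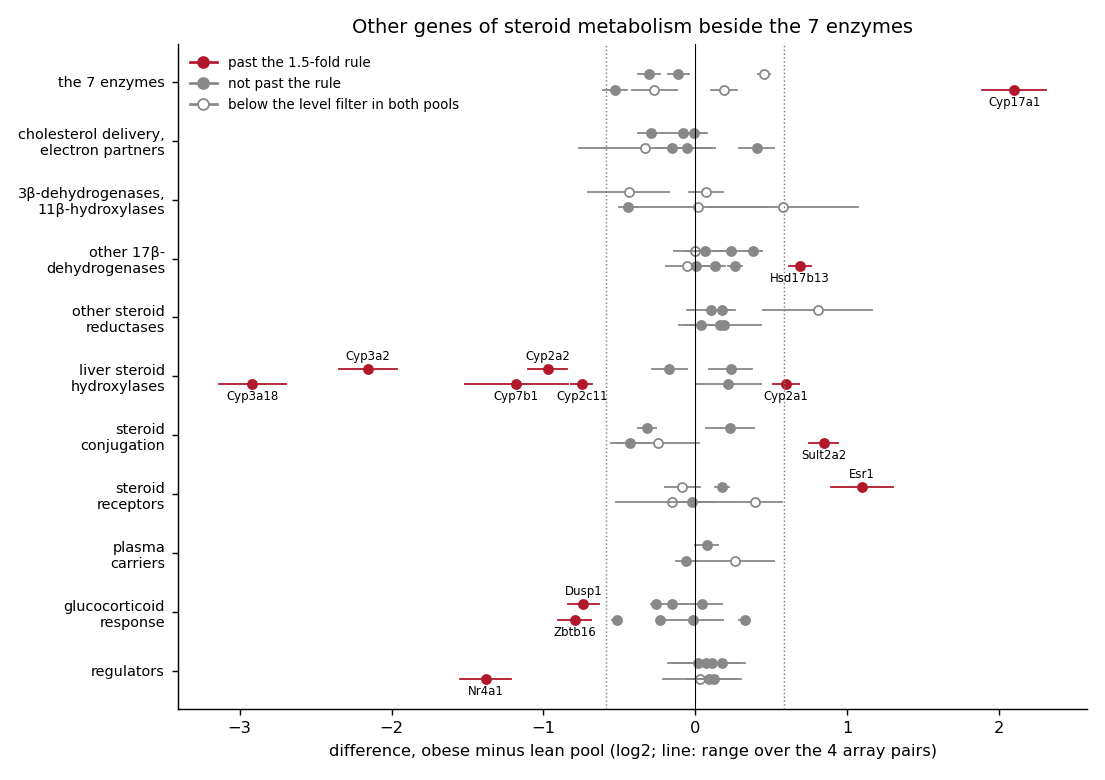
Difference between the pools (log2, obese minus lean) of the 7 enzymes and of the measured members of 10 lists of steroid metabolism; lines are ranges over the 4 array pairs, red marks genes past the 1.5-fold rule, open points genes below the level filter in both pools, and dotted lines a fold of 1.5. Cyp17a1 lies farthest to the right at 2.10 and Cyp3a18 farthest to the left at -2.92.

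Cyp17a1 was past the 1.5-fold rule as higher under each of the 10 alternatives that could change its value, with differences from 1.81 to 2.31, the extremes coming from an offset of 16 on the linear scale and from the original arrays alone. Leaving out the level filter or averaging probe sets cannot alter a gene with 1 probe set. Hsd11b1 stayed between -0.45 and -0.25 and was past the rule under none of them. Hsd17b6 was above 0 with the mean of its probe sets and below 0 under the other alternatives.

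**Figure D5:**
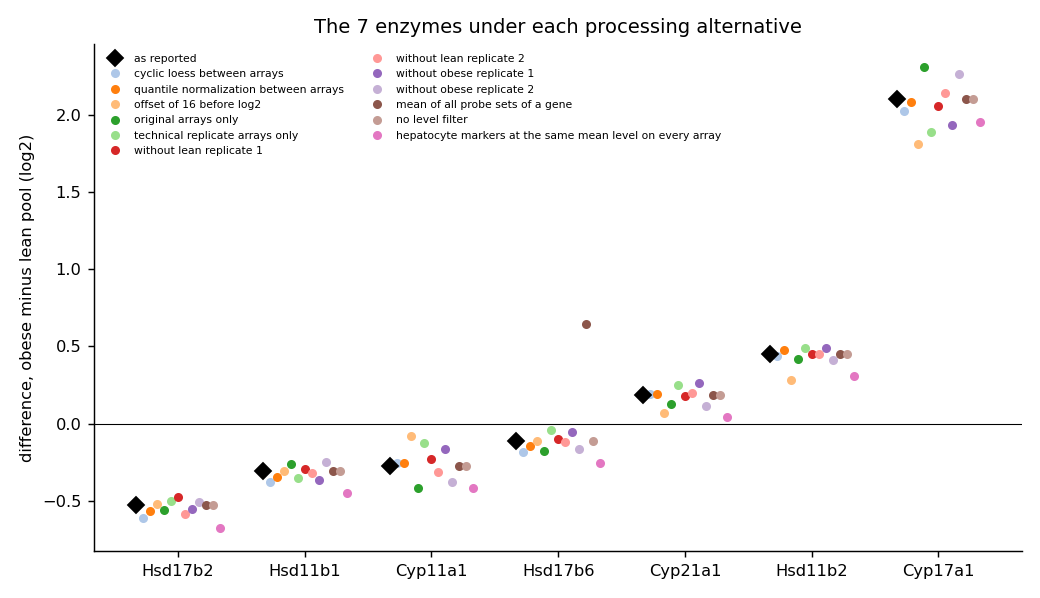
Difference between the pools (log2, obese minus lean) of the 7 enzymes as reported (black diamonds) and under 12 processing alternatives (coloured points, of which 10 could change the value of a gene with 1 probe set). Cyp17a1 stays between 1.81 and 2.31, and the 1 point of Hsd17b6 above 0, at 0.64, is the mean of its 3 probe sets.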

How the data were processed

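Liver RNA pools of lean and obese rats were measured on 4 arrays, each pool from 100 ng of RNA in 2 arrays. The deposited file gives each probe set a linear intensity per array, which the authors obtained by RMA according to the submitters' processing notes. The software version and genome build are not given in the sources used here, so no coordinates are printed. The scale was read from the values, whose medians ran from 25.73 to 27.69. Log2 was taken here without further normalisation.

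Of 29214 probe sets, 15310 carried 1 gene symbol, 323 several and 13581 none listed; the GRCr8 gene table of RefSeq held the gene ID of 15279 and changed 0 symbols. The probe set with the highest mean stood for each of the 527 genes with several. Arrays of a pool are technical replicates and count as 1 sample, so no p-values were computed. The number of arrays limits the precision.

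The members and gene lists were chosen with earlier results of these data known. Genes named are the members, every gene past the 1.5-fold rule on the pathway lists, and Star, Hsd3b2, Nr3c1, H6pd and Serpina6 (a further gene of this rule is not reported here). Of the cell type markers, those of muscle are given by count. Akr1d1, Akr1c14, Akr1c3, Cyp2c12, Cyp2c13, Cyp3a9, Hsd3b5, Ugt2b7, Tat, Mt2A, Apoa1, Nr5a2, Mc2r, Lhcgr, Rdh16, Rdh7 and Sdr9c7 were added after their values were seen. Only the 2-fold rule was checked on simulated data, with large planted differences in genes above the median level. The 1.5-fold rule was not checked in this way. Alternatives were cyclic loess and quantile normalisation (limma 3.58.1), an offset, array subsets, the mean of probe sets, no level filter and scaling to hepatocyte markers. Figures were drawn with matplotlib 3.10.9.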

Additional observations from a re-analysis of the deposited data

How the results depend on the processing

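No paired analysis was possible because each phenotype is 1 pool and no result comes from a test; pairing the arrays by their original and technical replicate labels gives the 2 single differences below, whose mean is the reported one. A value counted as moved when it shifted by 0.17 or more on the log2 scale, the pooled SD between arrays of a pool over all genes, and a count when it changed by over 1.5 times. Over 12 alternatives, and without the 54 values that an alternative could not alter, 154 values of members and counts stayed within these limits and 13 moved. Of those of single listed genes and list medians 208 stayed and 15 moved, and no called value changed sign. An offset of 16 gave differences of 1.81 for Cyp17a1, -0.081 for Cyp11a1 and 0.28 for Hsd11b2, as it shrinks differences of dim genes. Cyp17a1 was 2.31 on the original arrays alone and 1.89 on the technical replicate arrays alone, and 1.93 to 2.27 when an array was left out. The mean of all probe sets gave 0.64 for Hsd17b6 and 2 members higher. Cyclic loess gave 1 member lower, Hsd17b2, as did scaling to the hepatocyte markers, which was chosen after seeing the data. That scaling left 2 of the other pathway genes higher and 179 of all genes 1.5-fold higher, against 317. The count of 1.5-fold higher genes was 616 on the original arrays alone and 258 to 553 when an array was left out, the highest without the obese technical replicate array. Of all calls by the 1.5-fold rule, 47.4% were higher, against 36.2% with cyclic loess and 27.4% with the hepatocyte scaling. Cyp2a1 kept its call in 6 of 12 alternatives and Hsd17b13 in 11. Both counts include leaving out the level filter and averaging probe sets, which cannot alter a gene with 1 probe set. Scanner files were not used here, so signal over background was not assessed.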

Other observations

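Markers of the zones of the liver lobule were added as a description beside the steroid enzymes. Of 4 measured pericentral markers, all were below 0 in the difference, with a median of -0.35, and 1 was past the 1.5-fold rule, the glutamate transporter Slc1a2, which was 1.85-fold lower (1.68 to 2.03). Of 5 periportal markers 4 were above 0, with a median of 0.23, and the amino acid-degrading enzyme Sds was past the rule as lower, by 1.90-fold (1.73 to 2.09). The steroid reductase Akr1c3 differed by 0.81 (0.45 to 1.16) but lay below the level filter in both pools, at 4.30 and 5.11.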
